A study of Mus musculus with 106 samples.

Results

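The genes described here are 10 members of the Nodal pathway and of the primed epiblast: Nodal, Tdgf1, Lefty1, Lefty2, Acvr2b, Smad2, Smad3, Foxh1, Otx2 and Foxd3. They were found by gene symbol among the 18193 genes with a probe set of 1 symbol, and all 10 were measured on arrays that each held cDNA amplified from 1 single cell of a mouse embryo (strain C57BL/6). Embryo fragments were dissociated, cells were picked at random, and 11 groups were formed from the stage, the genotype and a few transcripts screened in the cDNA.

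Blimp1 (-/-) cells, chosen for the transcript of the Blimp1-null allele together with Oct4, were taken at the Late-Streak/0-Bud stage (LS/0B, 20 cells) and the Early/Mid-Bud stage (E/MB, 12 cells). Prdm1 encodes Blimp1, a repressor of transcription needed to form primordial germ cells (PGCs), the founders of sperm and eggs. All other cells were wild type. The germ cell path ran from 8 posterior epiblast cells at the pre-streak stage (Oct4+, T+) through 7 Early/Mid-Streak (E/MS) and 17 LS/0B precursors (Blimp1+, Oct4+) to 8 PGCs each at E/MB, at early head fold (EHF) and at E8.25, that is, day 8.25 of development (each chosen as positive for Blimp1 and stella). Cells positive for both Blimp1 and Hoxb1 (and Oct4) formed a group of 4 at E/MB and a group of 4 whose description and source give EHF but whose title gives E/MB. The last group was 10 posterior mesoderm cells from the base of the allantois at E/MB (Blimp1-, Oct4+, Hoxb1+). No embryo or litter is named, so each group counted as 1 sample, and differences are given with the SD over cells and without a test. The Blimp1 (-/-) cells are those that transcribed the null allele, not all mutant cells.

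Nodal is a secreted ligand of the TGF-beta superfamily that patterns the early embryo and maintains the epiblast before gastrulation. It acts through activin receptors, among them the type II receptor encoded by Acvr2b, with the membrane-anchored co-receptor Cripto encoded by Tdgf1; the receptors phosphorylate Smad2 and Smad3, which act on DNA with partners such as Foxh1. Lefty1 and Lefty2 are secreted inhibitors that Nodal signalling itself induces. Otx2, a homeobox factor, and Foxd3, a forkhead factor, are transcription factors of the epiblast, which in its post-implantation form is called primed.

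Levels are log2 of the MAS5 array signal, with values below a background floor (a signal of 70.2, or 6.13 in log2) raised to it. Detection was judged within each cell against probe sets of olfactory, vomeronasal and taste receptors and hair keratin-associated proteins: a signal above their 95th percentile, 82.8 to 166 depending on the cell, counted as detected. A difference of at least 1 log2 unit between group means was counted as a statement of size. Probe sets differ in brightness, so levels are compared between cells for 1 gene and never between genes. Transcripts of few copies can be lost in amplification from 1 cell, so a cell without a detected transcript may still have held some.

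The labels of the cell groups were set against markers, given here mostly for pre-streak epiblast. Of 6 epiblast markers, 5 were detected in at least 50% of the pre-streak cells. By contrast, 0 of 5 anterior visceral endoderm markers and 0 of 6 blood and endothelium markers were detected in any of them. Of 5 neural plate markers measured, 2 were detected in some epiblast cell, 1 of them in at least 50% of cells. Sox1, Pax6 and Neurog1 were detected in none. Of 4 definitive endoderm markers, 1 was detected in some epiblast cell, with a summed signal of 21.1 to 2061. The summed signal of the 5 anterior visceral endoderm markers was 76.9 to 152 over these cells (median 88.3). In E/MS precursors 3 of these 5 markers were detected in some cell, with a summed signal of 94 to 5482 (median 1780). In knockout LS/0B cells 3 were detected, with 59 to 3057 (median 1275). Of 12 visceral endoderm markers, 3 were detected in some epiblast cell, and Afp, Apob, Ttr and Hnf4a in none. Of 7 trophoblast and extraembryonic ectoderm markers, 5 were detected in some epiblast cell and Elf5 in none, with a summed signal of 300.4 to 767.5 in epiblast, 312 to 2189 in E8.25 PGCs and 524 to 5430 in mesoderm; the part of such cells in the results was not tested. Xist, the non-coding RNA that coats an inactive X, was detected in 8 of 8 epiblast cells. It was also detected in 8 of 17 LS/0B precursors, 5 of 8 EHF PGCs and 1 of 4 cells in each Blimp1+ Hoxb1+ group. None of the other 6 groups had it, among them E/MS precursors, E8.25 PGCs and mesoderm, which were compared with epiblast. Their differences from epiblast therefore cannot be told apart from a difference between Xist-positive and Xist-negative cells. In the 5 Xist-positive EHF PGCs the means were 7.25 ± 1.37 for Nodal, 6.61 ± 1.08 for Tdgf1 and 7.88 ± 1.44 for Smad3. In the 8 Xist-positive LS/0B precursors they were 7.87 ± 1.58, 8.51 ± 2.54 and 8.49 ± 1.22. Otx2 and Foxd3 were detected in no cell of either set. The part of Xist was not tested. Group means of detected probe sets ran from 11215 to 12960 of 45101. Hybridisation controls averaged 11.07 ± 0.33 on mesoderm arrays (SD, n = 10) and 9.61 ± 0.28 on all other arrays (n = 96), so mesoderm arrays stand apart in every comparison they enter.

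Promoter sequences are shown for 3 members that were lower in later cells than in epiblast and have a single window in the table used. They run from 250 bases before to 50 bases after the start of the gene, are written 5′ to 3′ on the strand of the gene, and come from RefSeq (GRCm38.p6), whose table held promoters for 6 of the members. In the Tdgf1 window (chr9:110946109-110946408, minus strand) the capitals mark CAGAC, the element to which Smad proteins bind, and 2 copies of GGGCGTGG, a GC-rich element of the kind bound by Sp and Klf factors. In the Foxd3 window (chr4:99656049-99656348, plus strand) they mark 1 GGGCGTGG match on the opposite strand, read as CCACGCCC. The Nodal window (chr10:61417722-61418021, plus strand) held none of the motifs searched and has no capitals.
Tdgf1: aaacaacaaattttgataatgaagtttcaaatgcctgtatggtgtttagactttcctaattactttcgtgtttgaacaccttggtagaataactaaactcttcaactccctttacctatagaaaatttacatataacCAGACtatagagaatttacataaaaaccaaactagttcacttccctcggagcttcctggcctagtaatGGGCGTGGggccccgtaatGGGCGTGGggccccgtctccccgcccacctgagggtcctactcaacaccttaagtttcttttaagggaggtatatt
Foxd3: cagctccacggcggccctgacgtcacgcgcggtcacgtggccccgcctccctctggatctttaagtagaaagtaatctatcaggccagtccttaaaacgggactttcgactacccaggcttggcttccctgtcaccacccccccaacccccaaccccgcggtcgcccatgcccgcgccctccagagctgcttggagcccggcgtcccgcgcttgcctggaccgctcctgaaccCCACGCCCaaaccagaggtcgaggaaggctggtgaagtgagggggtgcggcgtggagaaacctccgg
Nodal: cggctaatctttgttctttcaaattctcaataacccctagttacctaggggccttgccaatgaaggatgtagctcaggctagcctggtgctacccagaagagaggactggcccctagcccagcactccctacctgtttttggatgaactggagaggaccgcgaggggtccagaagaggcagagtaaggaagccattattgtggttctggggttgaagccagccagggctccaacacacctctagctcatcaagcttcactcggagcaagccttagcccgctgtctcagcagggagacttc

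The motifs searched, on both strands, were GGGCGTGG and CAGAC, both described above. Further ones were the Foxh1-type elements TGTGGATT and TGTGTATT and the palindromic Smad element GTCTAGAC. The last was TAATCC, an element that Otx2 can bind. GGGCGTGG was added after the Tdgf1 sequence had been read. In Tdgf1 its copies began at positions -45 and -26 from the start; 5.33% of all 32851 promoter windows held at least 1 copy and 0.728% held 2 or more. CAGAC, at -113 in Tdgf1 and -233 in Acvr2b (there as GTCTG), was found in 49.6% of all windows. TAATCC was found in 1 of 4 Otx2 windows (7.06% of all windows), and the Foxh1-type and palindromic elements in no member window (0.855%, 0.980% and 0.213% of all windows). Base composition differed between members: G and C made up 41.7% of the Tdgf1 window, 54% of the Nodal window, 65.7% of the Foxd3 window and 67.7% of the Smad3 window, against a median of 52.7% over all windows.

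Nodal transcript was found in every pre-streak epiblast cell and in a part of the cells of most later groups. Signal in the 8 epiblast cells ran from 404 through a median of 1011 to 1585. At later stages the highest cell of each group lay within this range while others were at background: the lowest, median and highest signals were 1, 20.4 and 1162 in E/MS precursors and 4.08, 207 and 824 in LS/0B precursors. PGCs gave 8.04, 234 and 717 at E/MB, 1.77, 97.4 and 670 at EHF, and 1, 10.7 and 1068 at E8.25. The number of cells with Nodal differed between groups, with 8 of 8, 2 of 7, 10 of 17, 5 of 8, 4 of 8 and 2 of 8 cells positive in stage order. Means in the same order were 9.88 ± 0.65, 7.22 ± 1.86, 7.61 ± 1.38, 7.76 ± 1.35, 7.06 ± 1.17 and 6.85 ± 1.44 (SD over cells). Epiblast stood above the next group, E/MB PGCs, by 2.12, more than their pooled SD of 1.06, and no other neighbours in the order of the 11 groups differed by more than their spread.

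Outside the wild-type germ cell path Nodal was detected in 0 to 30% of cells by group, and on it in 25 to 100%. It was detected in 6 of 20 knockout cells at LS/0B (highest signal 711) and in 0 of 12 at E/MB (highest 108). Among Blimp1+ Hoxb1+ cells it was detected in 1 of 4 at E/MB, with signals of 6.03, 6.56, 46.3 and 188, and in 0 of 4 at EHF, where the highest was 7.38. One of 10 mesoderm cells had it (252). At a stricter detection limit, the 99th percentile of the same background probe sets, 7 of 17 LS/0B precursors and 2 of 20 knockout LS/0B cells had Nodal. The second Nodal probe set was detected in 0 cells, so these values rest on 1 probe set.

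**Figure D1:**
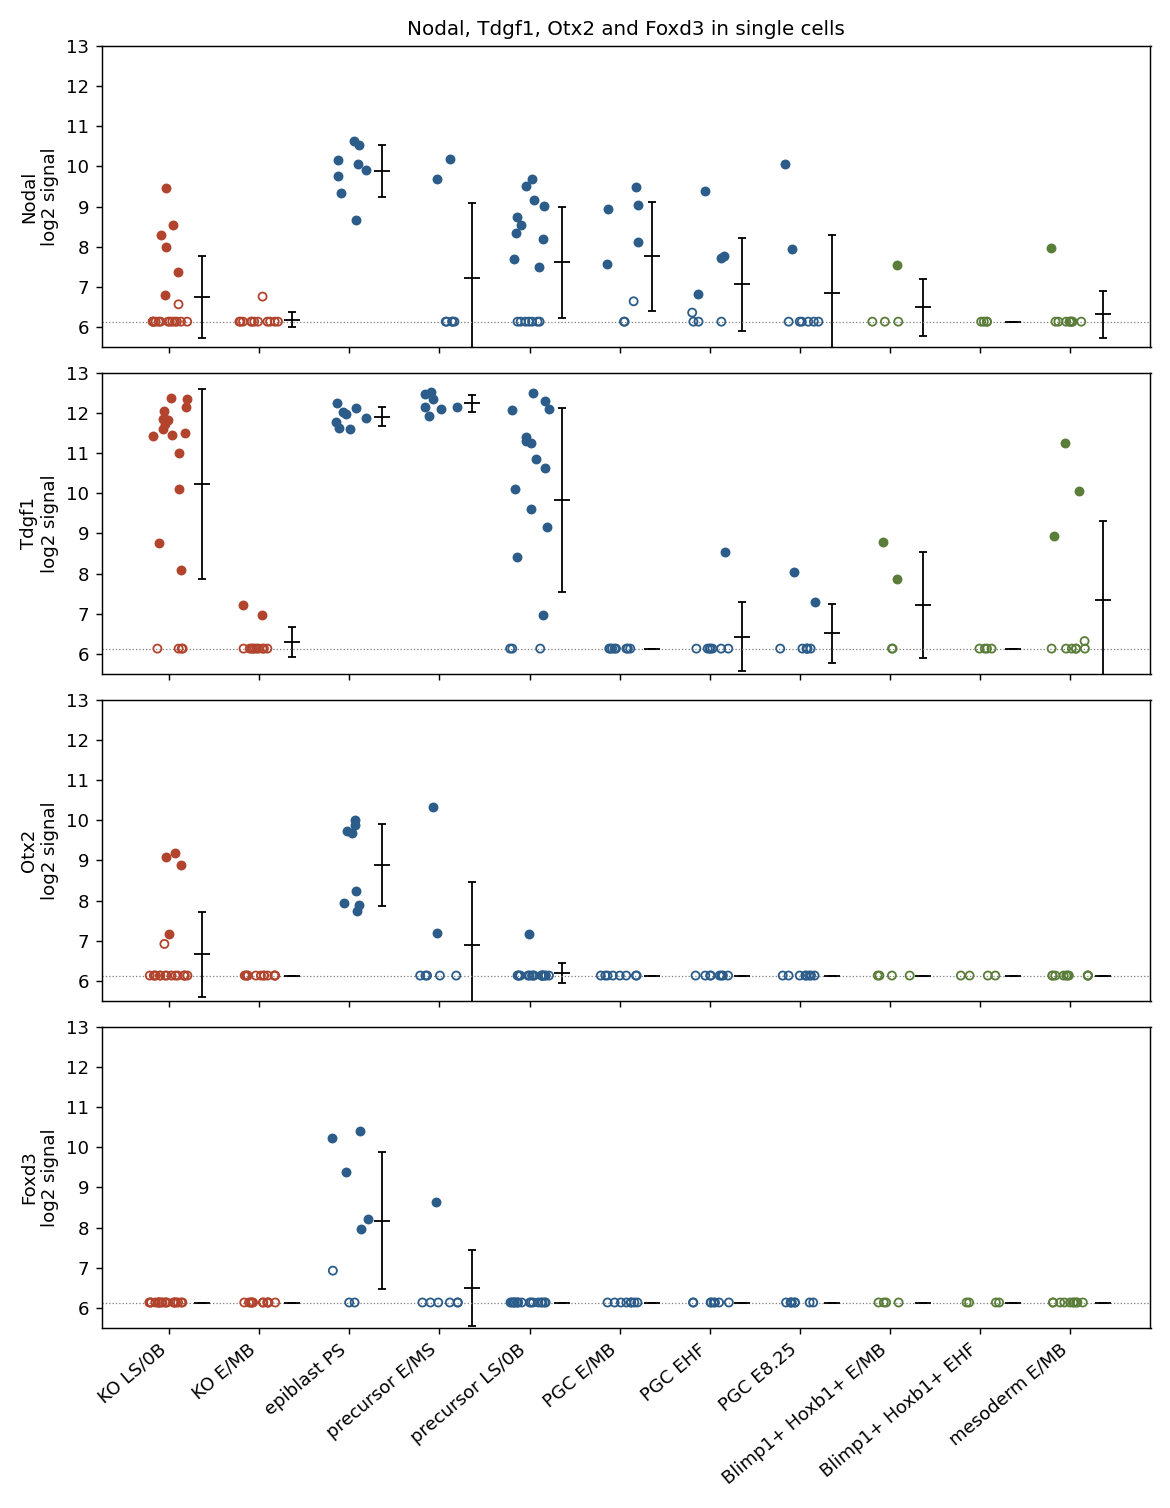
Nodal, Tdgf1, Otx2 and Foxd3 in every cell, as floored log2 signal (vertical axis) by group (horizontal axis; KO, Blimp1 knockout; PS, pre-streak). Filled points are cells with the transcript detected, open points cells without, bars the mean ± SD, and the dotted line the floor at 6.13; Tdgf1 is high in all epiblast and E/MS cells, spread over the whole range in LS/0B cells and at the floor in all 8 E/MB PGCs.

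Tdgf1, the Nodal co-receptor, was high in every epiblast and E/MS cell, spread widely at LS/0B and was at background in most PGCs. Its signal was 3131 to 4858 in the 8 epiblast cells (median 3890) and 3918 to 5908 in the 7 E/MS precursors (median 4543). The 17 LS/0B precursors ran from 1 to 5755 (median 1576), so the highest cells lay in the E/MS range and 3 cells were at the lowest deposited value. All 8 E/MB PGCs had a signal of at most 1.48. Later PGCs had single cells above background, 1 of 8 at EHF (371) and 2 of 8 at E8.25 (157 and 263). In log2 the means were 11.91 ± 0.23, 12.24 ± 0.22, 9.83 ± 2.29, 6.13 (all cells at the floor), 6.43 ± 0.85 and 6.52 ± 0.74 in stage order.

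In knockout cells Tdgf1 also spread widely at LS/0B and was near background at E/MB. It was detected in 16 of 20 knockout cells at LS/0B (lowest 1, median 2847, highest 5305) and 2 of 12 at E/MB (126 and 150). Mesoderm had 3 of 10 cells with Tdgf1, at 494, 1075 and 2450. Blimp1+ Hoxb1+ cells had 2 of 4 at E/MB, at 233 and 441, and 0 of 4 at EHF. Over the order of groups, E/MS precursors stood above epiblast by 0.33 (pooled SD 0.22) and LS/0B precursors above mesoderm by 2.49 (pooled SD 2.14), while other neighbours did not differ beyond their spread. RefSeq lists 2 Tdgf1 pseudogenes, whose transcripts, if any, the single probe set might also bind.

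The Lefty inhibitors were found in few cells. Lefty1 was detected in 2 cells of the whole series, 1 epiblast cell (signal 250) and 1 E8.25 PGC (462). Lefty2 was detected in 14 cells: 5 of 20 knockout LS/0B cells, 4 of 8 epiblast cells, 2 of 7 E/MS and 2 of 17 LS/0B precursors, and 1 of 8 EHF PGCs. Where present it could be bright, with 1743 and 1415 in E/MS precursors and 1207 in the highest knockout cell, against a highest of 277 in epiblast. With the stricter limit, 1 of 8 epiblast cells remained. Lefty2 was detected in 0 cells of the other 6 groups.

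Otx2 and Foxd3 were found mainly in pre-streak epiblast. Otx2 was detected in all 8 epiblast cells, with signals of 213 to 301 in 4 of them and 821 to 1032 in the other 4. Among E/MS precursors 2 of 7 cells had it, 1 of them at 1284 and the other at 146, and 1 of 17 LS/0B precursors had it at 145. It was detected in 4 of 20 knockout LS/0B cells (highest 578) and in 0 cells of the other 7 groups, all PGC groups among them. Foxd3 was detected in 5 of 8 epiblast cells, in 1 of 7 E/MS precursors (398) and in 0 cells of the other 9 groups. Over all 8 epiblast cells its lowest, median and highest signals were 4.97, 273 and 1346, and the lowest detected signal was 250. Epiblast exceeded E/MS precursors, the next group for both genes, by 2.01 for Otx2 (pooled SD 1.32) and 1.68 for Foxd3 (pooled SD 1.38).

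**Figure D2:**
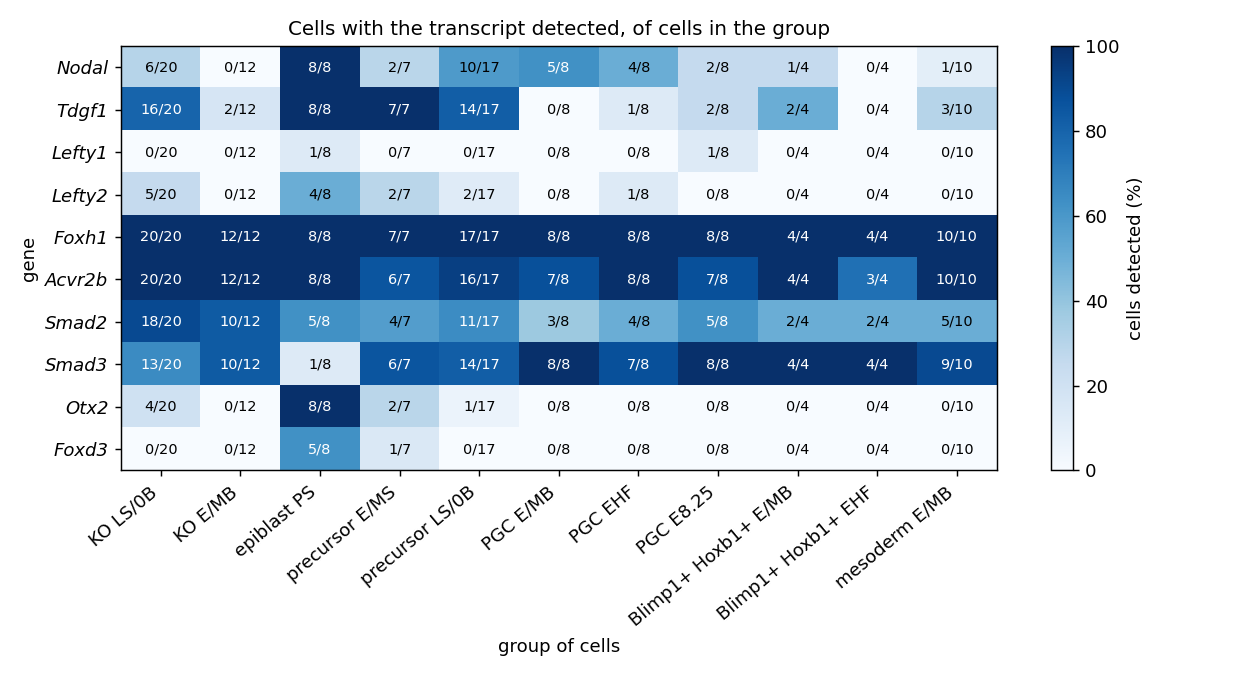
Number of cells with each of the 10 transcripts detected, of the cells in the group (numbers in boxes), for 10 genes (rows) and 11 groups (columns); shading is the percentage of cells. Foxh1 and Acvr2b are dark throughout, Otx2 and Foxd3 mainly in pre-streak epiblast, and Smad3 is dark in every group except epiblast, with 1 of 8 cells.

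The intracellular transducer Smad3 ran opposite to these genes. In epiblast its signal was 27.5 to 120 (median 49.5) and it was detected in 1 of 8 cells. It was detected in 6 of 7 E/MS precursors (median of all 7, 214) and 14 of 17 LS/0B precursors (median of all 17, 239). All 8 E/MB PGCs (259 to 1973, median 821) and all 8 E8.25 PGCs (300 to 1203, median 420) had it. At EHF 7 of 8 PGCs had it, and over all 8 the signal was 42.7 to 1126 (median 405). Every PGC at E/MB and E8.25 thus lay above every epiblast cell. Mean levels in stage order were 6.30 ± 0.31, 7.98 ± 1.45, 8.001 ± 1.157, 9.55 ± 0.94, 8.46 ± 1.41 and 9.07 ± 0.80. Only at the bottom of the order of groups was there a step beyond the spread, LS/0B knockout cells above epiblast by 1.30 (pooled SD 0.87). The other 2 Smad3 probe sets were detected in 0 cells, so this pattern also rests on 1 probe set. At the stricter limit Smad3 was detected in 2 of 7 E/MS precursors, 3 of 10 mesoderm cells and all PGCs at E/MB and E8.25.

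Acvr2b and Foxh1 were detected in nearly every cell, and Smad2 in a part of the cells of each group. Acvr2b was detected in 101 cells, all except 5, with group means of 8.58 in Blimp1+ Hoxb1+ EHF cells to 9.82 in mesoderm. A second Acvr2b probe set, detected in 93 cells, was lowest in mesoderm (7.13 ± 0.85), so the order of groups for this gene depends on the probe set. Foxh1 was detected in every cell, with group means of 10.25 to 11.11. Its 3 probe sets disagreed in direction: E8.25 PGCs against epiblast differed by -0.66, 0.15 and 0.58. The Foxh1 probe set used is of a kind that can bind several transcripts, so its level is uncertain. Smad2 was detected in 69 cells, with group means of 6.99 in E/MB PGCs to 8.46 in E/MB knockout cells. A second Smad2 probe set gave the reverse order for these groups, 6.89 in E/MB knockout cells and 7.54 in E/MB PGCs.

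**Figure D3:**
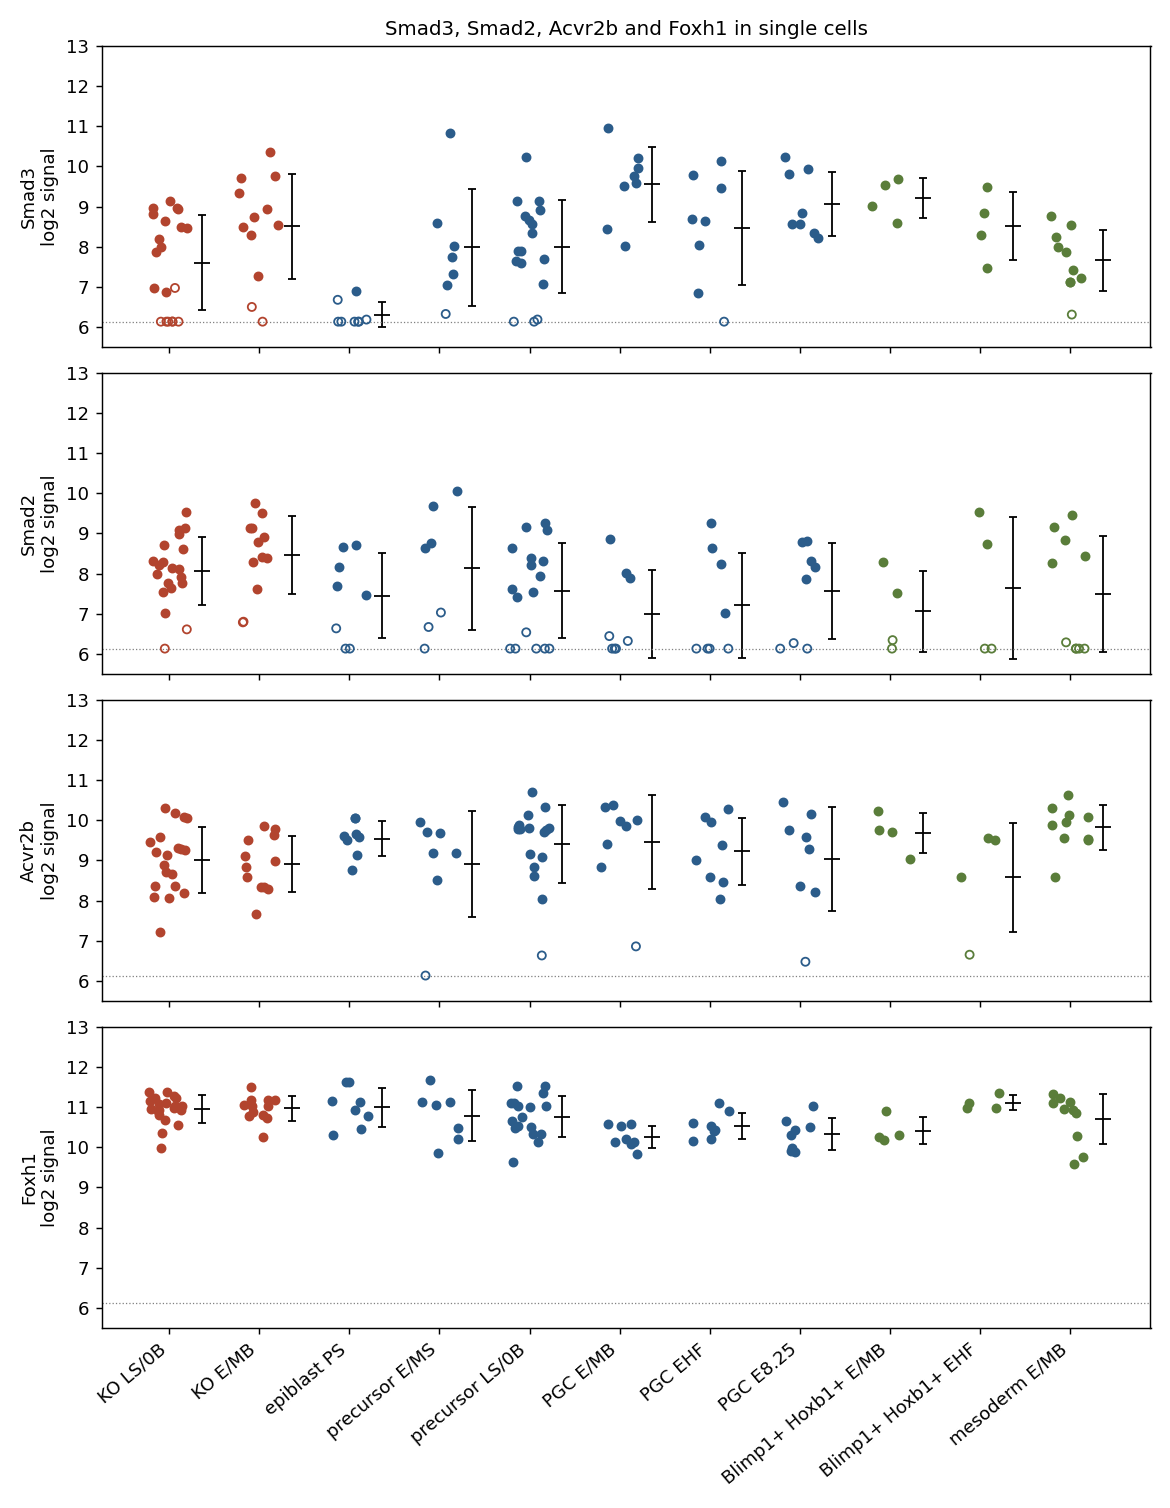
Smad3, Smad2, Acvr2b and Foxh1 in every cell, as floored log2 signal (vertical axis) by group (horizontal axis; KO, Blimp1 knockout; PS, pre-streak), with filled points for detected, open points for undetected and bars for the mean ± SD. Smad3 is near the floor of 6.13 in epiblast and above it in every E/MB and E8.25 PGC, whereas Foxh1 is far above it in every cell and Acvr2b is at it in 1 E/MS precursor.

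Single cells differed in which members they combined. All 8 epiblast cells had both Nodal and Tdgf1, whereas of 7 E/MS precursors 2 had both and 5 had Tdgf1 without Nodal. Of 20 knockout LS/0B cells, 6 had both, 10 had Tdgf1 without Nodal, 4 had neither and 0 had Nodal alone. Of 17 wild-type LS/0B precursors, 7 had both, 7 had Tdgf1 without Nodal, 3 had Nodal without Tdgf1 and 0 had neither. Of 8 E/MB PGCs, 5 had Nodal and 0 had Tdgf1. Nodal without Tdgf1 was also found in 3 of 8 EHF PGCs and 1 of 8 E8.25 PGCs. Both transcripts were found together in 1 of 8 cells of each of these later groups. In both LS/0B groups Lefty2 was detected only in cells that also had Tdgf1, 5 of 16 such knockout cells and 2 of 14 such precursors.

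Tdgf1 in LS/0B precursors was set against transcripts used elsewhere in the series to choose cells. All 11 precursors with Hoxb1, one of the transcripts by which the mesoderm group was chosen, had Tdgf1, against 3 of 6 without Hoxb1. Of 8 precursors with Dppa3 (stella, a PGC marker), 6 had Tdgf1, and of 9 without Dppa3, 8 had it. Tdgf1 was lower in precursors with Xist: 5 of 8 precursors with Xist and 9 of 9 without Xist had Tdgf1, with means of 8.51 ± 2.54 and 11.01 ± 1.22. All 8 precursors with Xist, and the 3 without Tdgf1, were among replicates 14 to 24. The part of Xist in the spread of Tdgf1 was not tested.

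**Figure D4:**
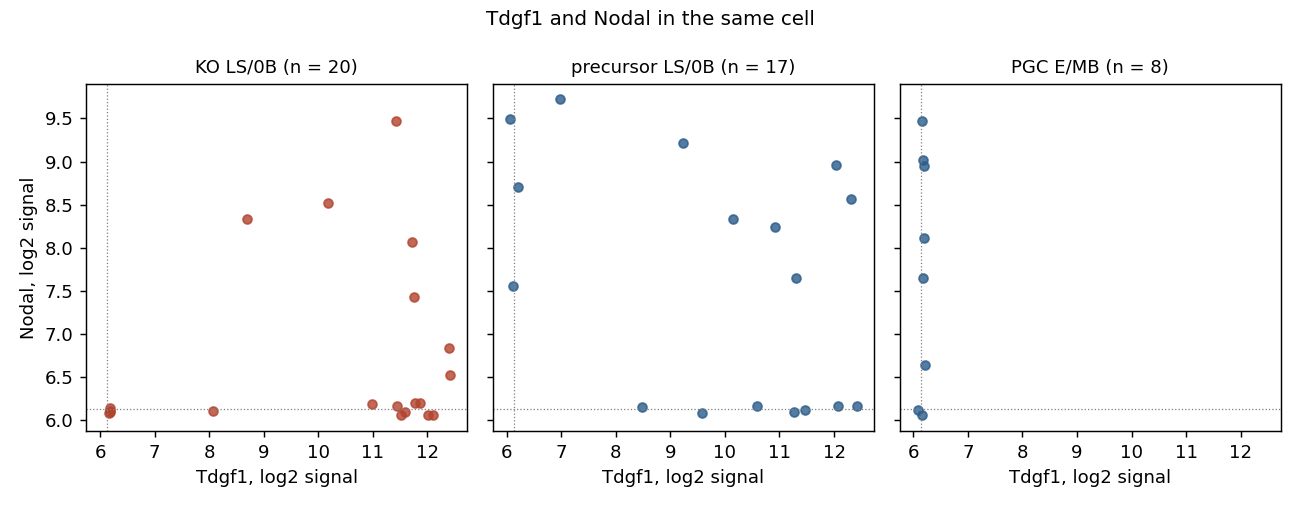
Tdgf1 (horizontal axis) and Nodal (vertical axis) in the same cell, as floored log2 signal with a small scatter added to separate points, in Blimp1 knockout (KO) LS/0B cells, LS/0B precursors and E/MB PGCs. Dotted lines mark the floor of 6.13; E/MB PGCs lie on the Tdgf1 floor with 5 of 8 Nodal-positive, and the knockout panel has no cell with Nodal alone.

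Taking Nodal, Tdgf1, Lefty2, Otx2 and Foxd3 together, a set chosen after their values were seen, the median number detected per cell in stage order was 4, 2, 2, 1, 1 and 0. It was 1.5 in LS/0B and 0 in E/MB knockout cells, 0.5 and 0 in E/MB and EHF Blimp1+ Hoxb1+ cells, and 0 in mesoderm. Every epiblast cell had at least 3 of the 5, and no E/MB PGC had more than 1. None of the 5 was found in 10 of 12 E/MB knockout cells, 7 of 10 mesoderm cells and 5 of 8 E8.25 PGCs.

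From pre-streak epiblast to E8.25 PGCs, 4 of the 10 members were lower and 1 was higher by at least 1 log2 unit, with a median difference of -0.74. Over all genes 4.79% were lower and 4.5% higher, with a median of 0. Among the 8173 genes detected in at least 50% of cells of either group, 20.5% passed 1 log2 unit in either direction. Tdgf1 averaged 6.52 ± 0.74 in E8.25 PGCs and 11.91 ± 0.23 in epiblast, a difference of -5.39, and no cells overlapped. Nodal differed by -3.03, and 1 PGC at a signal of 1068 lay inside the epiblast range. Otx2 and Foxd3 were detected in 0 of 8 E8.25 PGCs and were at least 3.88-fold and at least 1.68-fold lower there than in epiblast. For such a bound the mean log2 signal in the brighter cells was set against the dimmer cells at their detection limits, or at their own signal where that was higher. Smad3 averaged 9.07 ± 0.80 in E8.25 PGCs and 6.30 ± 0.31 in epiblast, a difference of 2.76 without overlap, or 0.92 where its 3 probe sets were averaged.

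Nodal, Otx2 and Foxd3 were already lower in E/MS precursors than in epiblast. In this comparison 3 of 10 members were lower (2.67% of all genes) and 1 was higher (2.48%), with a median of -0.22 against 0 over all genes. Nodal differed by -2.66, Otx2 by -2.01 and Foxd3 by -1.68, while Smad3 was higher by 1.68 (0.56 with its probe sets averaged). Tdgf1 was higher by 0.33, with every E/MS cell at or above 3918. Cells of the 2 groups overlapped for Nodal, Otx2, Foxd3 and Smad3. After scaling to the lys control 2 members were higher and 3 lower, with Smad2 at 1.01. Of 8 mesoderm markers, 5 were higher in E/MS precursors, Mesp1, Pdgfra, Kdr, Foxf1 and Snai1, and 0 lower. Their summed signal was 386 to 14062 in E/MS precursors (median 8702) and 166 to 627 in epiblast (median 400.3), where Kdr, Msgn1, Foxf1 and Hand2 were detected in no cell. Their part in the differences was not tested.

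From E/MS to LS/0B precursors Tdgf1 and Lefty2 were lower, 2 of 10 members (1.37% of all genes lower), and 0 were higher (1.41%); the members' median was -0.19 against 0. Tdgf1 differed by -2.41, or -1.23 between cells without Xist, and Smad2 differed by -0.56, or -1.05 between cells without Xist. Lefty2 differed by -1.05, a value carried by single bright E/MS cells, since without replicate 1 of that group it was -0.54 and without replicate 2 it was -0.49. In LS/0B cells the Lefty2 signal reached 520, against 1743 in E/MS cells.

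In E/MB PGCs, set against LS/0B precursors, Tdgf1 was at background and Smad3 was higher, so 1 of 10 members was lower (2.56% of all genes) and 1 higher (2.72%), with a median of -0.03 against 0. Tdgf1 was detected in 0 of 8 E/MB PGCs and was at least 3.72-fold lower than in LS/0B precursors, where it was detected in 14 of 17 cells. Smad3 differed by 1.55, or 0.52 with its probe sets averaged. Between cells without Xist the differences were -4.87 for Tdgf1 and 1.99 for Smad3. Nodal differed by 0.15, with 5 of 8 PGCs and 10 of 17 precursors positive.

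Later PGC stages differed little in the members. From E/MB to EHF PGCs 1 of 10 members was lower (2.06% of all genes) and 0 higher (1.81%), with a median of 0.02 against 0. That member, Smad3, averaged 8.46 ± 1.41 at EHF and 9.55 ± 0.94 at E/MB, a difference of -1.09. It was -0.12 between cells without Xist, -0.86 and -0.76 without EHF replicate 6 or 8, and -0.89 and -0.997 without E/MB replicate 2 or 8. Nodal differed by -0.70, by -1.02 between cells without Xist and by -1.03 without EHF replicate 4. From EHF to E8.25 PGCs 0 of 10 members passed 1 log2 unit in either direction (1.6% of all genes were higher and 1.48% lower), with a median of 0 for members and for all genes.

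Blimp1 knockout cells at LS/0B were within 1 log2 unit of wild-type precursors for every member: 0 of 10 were higher (0.945% of all genes) and 0 lower (0.379%), with a median of 0.09 against 0. Nodal came closest, with 6.74 ± 1.02 in knockout cells (6 of 20 detected) and 7.61 ± 1.38 in precursors (10 of 17), a difference of -0.87, or -1.01 without knockout replicate 13. Tdgf1 averaged 10.23 ± 2.38 in knockout cells and 9.83 ± 2.29 in precursors, a difference of 0.40 that turned to -0.77 when precursors with Xist were left out. Lefty2 was found in 5 of 20 knockout cells and 2 of 17 precursors, and Otx2 in 4 of 20 and 1 of 17. The groups overlapped for each of these 4 genes. No knockout cell had Xist, whereas 8 of 17 precursors did. When precursors with Xist were left out, Nodal differed by -0.63. Smad2 then came closest to 1 log2 unit, at 0.99, against 0.50 over all cells.

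At E/MB, knockout cells differed from PGCs in 3 of 10 members, 1 higher (3.69% of all genes) and 2 lower (3.37%), with a median of 0 for members and for all genes. With probe sets averaged 0 members passed 1 log2 unit, and after scaling to the lys control 2 were higher and 1 lower. Nodal was detected in 0 of 12 knockout cells and 5 of 8 PGCs, at least 1.21-fold lower in knockout cells, with floored means of 6.18 ± 0.18 and 7.76 ± 1.35. Smad3 averaged 8.51 ± 1.30 in knockout cells and 9.55 ± 0.94 in PGCs, a difference of -1.04. Leaving out any of knockout replicates 4, 6 and 7 or PGC replicates 2, 5 and 8 brought it to between -0.83 and -0.99. Smad2 was higher by 1.47 with the probe set used and differed by -0.65 with the other. Tdgf1 was near background in both, in 2 of 12 knockout cells and 0 of 8 PGCs.

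Knockout cells from E/MB, set against knockout cells from LS/0B, differed in Tdgf1 alone: 1 of 10 members was lower (0.643% of all genes) and 0 higher (0.495%), with a median of -0.05 against 0. Tdgf1 averaged 6.29 ± 0.38 at E/MB and 10.23 ± 2.38 at LS/0B, a difference of -3.94. Smad3 differed by 0.91, and by 1.09, 1.12 and 1.02 without E/MB replicate 4, 6 or 7. After quantile normalization, and after scaling to the lys control, 1 member was higher and 1 lower. Against mesoderm of the same stage, knockout cells had 1 of 10 members lower (1.29% of all genes) and 0 higher (6.58%), with a median of 0 for both. It was Tdgf1, at -1.04, a value that 3 bright mesoderm cells carried (-0.61, -0.74 and -0.87 without mesoderm replicate 7, 8 or 9). Smad2 (0.97) crossed 1 on leaving out any of 3 knockout or 5 mesoderm cells, Smad3 (0.85) without knockout replicate 4 (1.03) or 6 (1.07), and Acvr2b (-0.91) without mesoderm replicate 7 (-1.05). The second Acvr2b probe set gave 0.59, the opposite direction. After scaling to the lys control 1 member was higher and 0 lower, with Smad2 at 1.25 and Tdgf1 at -0.96.

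By at least 1 log2 unit, E/MB PGCs differed from mesoderm in Nodal, Tdgf1 and Smad3, and from Blimp1+ Hoxb1+ cells in Nodal and Tdgf1. Each of these differences fell below 1 in size under some other setting. Against mesoderm, PGCs had 2 of 10 members higher (7.99% of all genes) and 1 lower (3.55%), with a median of 0 for both. Nodal averaged 7.76 ± 1.35 in PGCs and 6.32 ± 0.58 in mesoderm (1.44), and Smad3 9.55 ± 0.94 in PGCs and 7.66 ± 0.76 in mesoderm (1.89). With probe sets averaged the differences were 0.72 and 0.62. Tdgf1 differed by -1.21, and by -0.77 or -0.90 without mesoderm replicate 7 or 8. With a floor at the 95th percentile Nodal differed by 0.97 and Tdgf1 by -0.96. After scaling to the lys control 2 members were higher and 2 lower, with Foxh1 at -1.09. The broadly detected genes had a median of 0.16 in this comparison, in which the mesoderm arrays stand apart by their hybridisation controls; the part of the arrays in these differences was not tested.

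Against Blimp1+ Hoxb1+ cells at E/MB, PGCs had 1 member higher (4.86% of all genes) and 1 lower (5.1%), with a median of 0 for both. Nodal differed by 1.27, with 5 of 8 PGCs and 1 of 4 Blimp1+ Hoxb1+ cells positive. Tdgf1 differed by -1.10, and by -0.88 or -0.58 without Blimp1+ Hoxb1+ replicate 3 or 4, the 2 positive cells. With a floor at the 95th percentile Nodal differed by 0.92 and Tdgf1 by -0.71. With probe sets averaged Nodal differed by 0.64. After scaling to the lys control Tdgf1 was at -0.95, so 1 member was higher and 0 lower. At EHF, PGCs had 0 members past 1 log2 unit against Blimp1+ Hoxb1+ cells (6.52% of all genes were higher and 5.12% lower), with a median of 0.02 against 0. Nodal was highest, at 0.93, and was 1.03 to 1.06 on leaving out PGC replicate 2, 3, 5 or 7. Between cells without Xist Nodal was at 0.61, below Acvr2b at 0.98 and Smad3 at 0.91. Blimp1+ Hoxb1+ cells at E/MB had 1 member higher than mesoderm (7.94% of all genes) and 0 lower (2.91%), with a median of 0 for both: Smad3, with signals of 387, 518, 743 and 827, against 79.3 to 435 in mesoderm, a difference of 1.55. This difference was 0.50 with its probe sets averaged and 0.87 after scaling to the lys control.

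Mesoderm at E/MB, set against pre-streak epiblast, had 4 of 10 members lower (7.55% of all genes) and 1 higher (2.83%), with a median of -0.55 against 0. Nodal differed by -3.56 and Tdgf1 by -4.57, in both cases without overlap between cells. Otx2 and Foxd3 were detected in 0 of 10 mesoderm cells and were at least 3.82-fold and at least 1.65-fold lower. Smad3 was higher by 1.36, or 0.47 with its probe sets averaged. This comparison and that of E8.25 PGCs share the epiblast cells.

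Other genes of the pathway came from a list of 31, of which 29 were measured, and 12 other primed epiblast genes were followed with them. Of the pathway genes, 1 was higher and 5 were lower in E8.25 PGCs than in epiblast, with a median of 0, against 4.5% and 4.79% of all genes. The higher gene was Acvr1b, which encodes a type I receptor through which Nodal signals. It averaged 10.55 ± 0.65 in PGCs and 9.01 ± 0.87 in epiblast. The lower ones were the activin inhibitor gene Fst, the Smad co-repressor genes Skil and Tgif1, and the targets Eomes and Fgf8. Eomes, a T-box factor induced by Nodal, was detected in 7 of 8 epiblast cells, 6 of 7 E/MS and 8 of 17 LS/0B precursors, 12 of 20 knockout LS/0B cells and 1 of 10 mesoderm cells. It was detected in 0 cells of the 3 PGC groups and in 0 of 12 E/MB knockout cells.

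Of 6 other targets measured, 2 were higher in E/MS precursors than in epiblast and 0 lower, with a median of 0.14. Of all 29 pathway genes, 3 were higher and 1 lower in E/MS precursors than in epiblast (median 0.02), against 2.48% and 2.67% of all genes. The 3 were the homeobox genes Lhx1 (9.01 ± 2.18 in E/MS precursors, 0 of 8 epiblast cells detected) and Mixl1 (10.60 ± 2.09 against 7.11 ± 1.15) and the second Nodal co-receptor gene, Cfc1 (9.52 ± 1.30 against 7.85 ± 1.52); the lower one was Ski. In LS/0B precursors, against E/MS precursors, Bmp4 was higher and Eomes, Mixl1 and Lhx1 were lower (1 and 3 of 29, median 0). The shares of all genes were 1.41% higher and 1.37% lower. In E/MB PGCs, against LS/0B precursors, Cfc1, Fst, Eomes, Mixl1 and Lhx1 were lower and Acvr1b was higher (5 and 1 of 29, median 0.05). Of all genes, 2.56% were lower and 2.72% higher. Cfc1 was detected in 3 of 8, 2 of 8 and 3 of 8 PGCs at the successive stages, against 11 of 12 knockout cells and 10 of 10 mesoderm cells at E/MB.

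In Blimp1 knockout cells at LS/0B, 0 of the 29 pathway genes were higher (0.945% of all genes) or lower (0.379%) by at least 1 log2 unit. Their median was 0.23 against 0 over all genes. At E/MB 4 were higher in knockout cells than in PGCs, Bmp4, Cfc1, Fst and Mixl1, and 3 were lower, Gdf3, Tgif2 and Fgf8 (median 0), against 3.69% and 3.37% of all genes. Of 8 mesoderm markers, 4 were higher in these knockout cells than in PGCs and 0 lower, with summed signals of 1688 to 6884 in knockout cells and 248.7 to 4463 in PGCs, and their part in the differences was not tested. Gdf3, a TGF-beta ligand related to Nodal, was detected in 0 cells of the knockout, Blimp1+ Hoxb1+ and mesoderm groups, against 5 of 8, 3 of 8 and 3 of 8 PGCs at the successive stages. Tgif2, a co-repressor of Smad proteins, averaged 9.95 ± 0.81 in E/MB knockout cells and 11.52 ± 0.27 in E/MB PGCs. Inhba, which encodes an activin subunit, was detected in every cell, and Smad4, the shared Smad partner, in every cell except 1 of 10 in mesoderm.

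Among the 12 other primed epiblast genes, 7 were lower and 1 was higher in E8.25 PGCs than in epiblast, with a median of -1.75. The shares of all genes were 4.79% lower and 4.5% higher, with a median of 0. Pim2, a kinase gene, averaged 6.65 ± 0.80 in E8.25 PGCs and 11.93 ± 0.30 in epiblast. Utf1, a chromatin protein gene of pluripotent cells, took another course: it was detected in 8 of 8 epiblast cells, 1 of 7 E/MS and 0 of 17 LS/0B precursors, and then in 3 of 8, 6 of 8 and 8 of 8 PGCs. Its mean of 9.88 ± 0.65 at E8.25 stood beside 9.90 ± 1.20 in epiblast, whereas Nodal, Tdgf1, Otx2 and Foxd3 were lower in E8.25 PGCs. Sox3, the gene that was higher, averaged 9.998 ± 0.417 in E8.25 PGCs and 7.73 ± 1.54 in epiblast. Fgf5, often used as a marker of primed cells, was detected in 1 epiblast cell, and Pou3f1 in 0 cells.

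**Figure D5:**
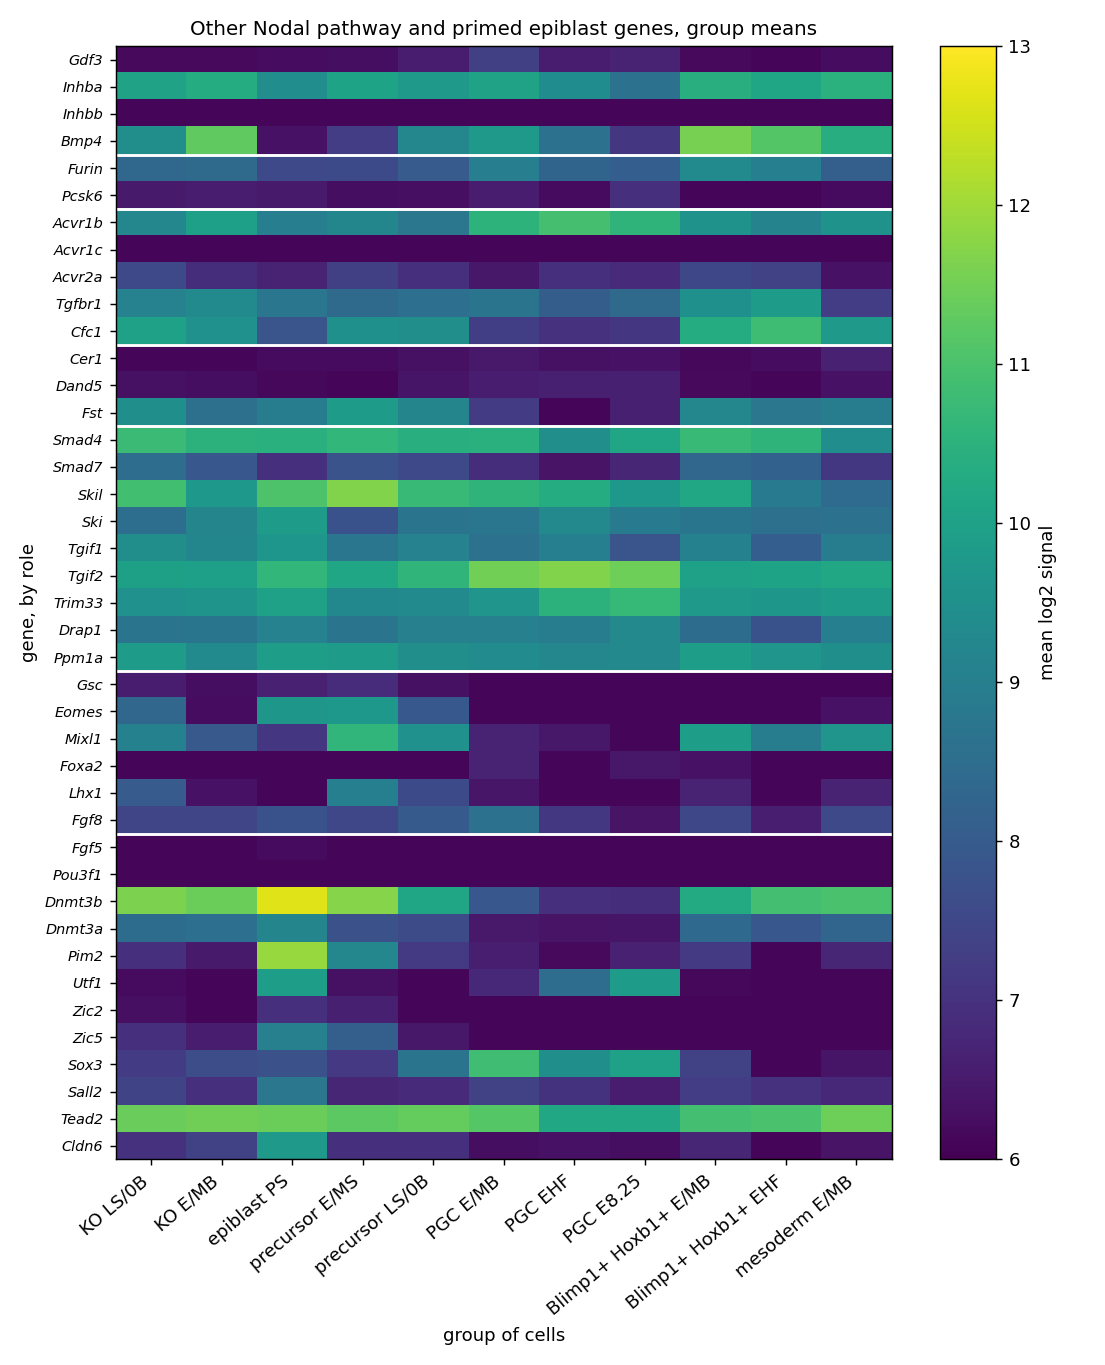
Mean floored log2 signal (colour) of 29 other Nodal pathway genes and 12 other primed epiblast genes (rows, with white lines between ligands, convertases, receptors, secreted inhibitors, intracellular regulators, targets and primed epiblast genes) in 11 groups (columns; KO, Blimp1 knockout; PS, pre-streak). Eomes is bright in epiblast and precursors and at the floor in PGCs, and Utf1 is bright in epiblast and again in E8.25 PGCs.

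The genes most like each member over the 11 group means were found among at least 8356 other genes found in no less than 75% of cells in some group. For Tdgf1 they were Eomes (Pearson r 0.99 over 11 groups, 0.82 over all cells), Card10 (0.96 and 0.48) and Pmaip1 (0.95 and 0.79). For Smad3 they included Cpped1 (0.97 and 0.39) and Nxnl1 (0.93 and 0.55), and for Otx2 the amino acid transporter gene Slc7a3 (0.99 and 0.62). For Nodal the best, Tespa1, had 0.94 over groups and 0.31 over cells. Among the members themselves, Otx2 and Foxd3 had 0.98 over groups and 0.46 over cells, Tdgf1 and Lefty2 0.92 and 0.45, and Tdgf1 and Smad3 -0.74 and -0.49. These values describe 11 means that share the arrays and the amplification of the cDNA.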

How the data were processed

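The authors deposited a linear intensity for each probe set, computed with MAS5 according to the submitters' processing notes. The MAS5 version and scaling target are not given in those notes. Per the labels' protocols, lysates of single cells were reverse transcribed and amplified by PCR before labelling with biotin. Of 45101 probe sets, 34945 had 1 gene symbol in the platform annotation, giving 18193 genes; 15.3% of values were at 1, 1 value was missing, and 0 pairs of arrays held the same values.

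Values below the floor, the median over cells of the 90th percentile of 126 background probe sets (receptor families Tas2r, V1r, V2r, Vmn and Olfr, and Krtap), were raised to it before log2. A gene was read from the probe set with the highest mean log2 signal. Groups were compared by the difference of mean log2 signal with the SD over cells; nothing was tested, since no embryo or litter is named and a group counts as 1 sample. The number of arrays limits the precision. Genes of the same pattern were ranked by Pearson r over group means (the 3 highest per member, of which the text names some). The step was checked on simulated data for genes bright in epiblast only, so the check does not cover members near the floor. The 15 comparisons were recomputed without a floor, with a floor at the 95th percentile, with probe sets averaged, after quantile normalization, after scaling to the lys control probe sets, without Xist-positive cells and without each cell in turn. Members, lists and rules were chosen with earlier results of these data known. Python 3.11.15 with numpy 2.4.6, pandas 2.3.3 and matplotlib 3.10.9 was used.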

Additional observations from a re-analysis of the deposited data

Results flagged for a closer look

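Of 55 pairs of member and group with 4 to 10 cells and some spread, 12 had 1 cell set apart from the others of its group, by a gap that is a large share of the group's range. Chance flags about 1 in 20 groups, and where most cells lie at the floor a single cell above it is set apart by construction. Values are floored log2 signal.

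Nodal stood out at 10.06 in E8.25 PGC replicate 1 (next cell 7.93), at 7.55 in replicate 3 of the Blimp1+ Hoxb1+ E/MB cells and at 7.97 in mesoderm replicate 9, all other cells of the last 2 groups being at 6.13. Tdgf1 was 8.54 in EHF PGC replicate 6, the single positive cell of its group. Lefty1 was 7.97 in epiblast replicate 3, 8.85 in E8.25 PGC replicate 3 and 6.47 in EHF PGC replicate 2, which was below the detection limit. Lefty2 was 7.23 in that same EHF PGC. Otx2 was 10.33 in E/MS precursor replicate 2 (next cell 7.19), above the highest epiblast cell, and Foxd3 was 8.64 in E/MS precursor replicate 5. Acvr2b was lowest at 6.13 in E/MS precursor replicate 6 (next 8.52) and at 6.86 in E/MB PGC replicate 4 (next 8.84).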

How the results depend on the processing

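No paired analysis was possible because the results come from no test and the replicate numbers only name cells. The counts of members past 1 log2 unit for E8.25 PGCs (5), E/MS precursors (4) and mesoderm (5) against epiblast stayed within 1.5 times the main count under every alternative run, and no called difference changed sign under them. A run without Xist-positive cells was not made for these comparisons, in which every epiblast cell had Xist. Read from its second probe set alone, Smad2 turned from 1.47 to -0.65 in E/MB knockout cells against PGCs. With the detection limit at the 99th percentile, 40 rather than 54 of 110 pairs of member and group were detected in at least 50% of cells.

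Without a floor, where values near 1 count in full, the counts became 4 for LS/0B against E/MS precursors (2 with the floor), 4 for E/MB PGCs against LS/0B precursors (2), 5 for EHF against E/MB PGCs (1), 2 for E8.25 against EHF PGCs (0), 5 for E/MB PGCs against mesoderm (3), 4 for E/MB PGCs (2) and 4 for EHF PGCs (0) against Blimp1+ Hoxb1+ cells, 4 for knockout against wild type at LS/0B (0), 5 for knockout cells against PGCs (3), 3 for knockout cells against mesoderm (1), 4 for knockout cells between stages (1) and 4 for Blimp1+ Hoxb1+ cells against mesoderm (1). With the higher floor they were 1 for LS/0B against E/MS precursors, 0 for EHF against E/MB PGCs, 1 for E/MB PGCs against mesoderm, 0 for E/MB PGCs against Blimp1+ Hoxb1+ cells and 0 for knockout cells against mesoderm. With probe sets averaged they were 1 for E/MB PGCs against LS/0B precursors, 0 for EHF against E/MB PGCs, 1 for E/MB PGCs against mesoderm, 1 against Blimp1+ Hoxb1+ cells, 0 for knockout cells against PGCs and 0 for Blimp1+ Hoxb1+ cells against mesoderm; silent probe sets enter these means. After quantile normalization the counts were 2 for knockout cells against mesoderm and 2 between knockout stages. After scaling to the lys control they were 0 for EHF against E/MB PGCs, 1 for E/MB PGCs against Blimp1+ Hoxb1+ cells, 2 between knockout stages and 0 for Blimp1+ Hoxb1+ cells against mesoderm. This scaling moved the median of broadly detected genes by -0.61 to 0.68 between comparisons; for knockout cells against PGCs the shift was 0.68, with Smad3 at -0.35 and Foxh1 at 1.44.

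Leaving out each cell in turn gave 5 to 5 members for E8.25 PGCs against epiblast, 4 to 5 for E/MS precursors against epiblast (Smad2 at 1.02 without E/MS replicate 7), 1 to 2 for LS/0B against E/MS, 0 to 2 for EHF against E/MB PGCs, 2 to 3 for E/MB PGCs against mesoderm, 1 to 2 for E/MB PGCs and 0 to 1 for EHF PGCs against Blimp1+ Hoxb1+ cells, 0 to 1 for knockout against wild type at LS/0B, 2 to 3 for knockout cells against PGCs, 0 to 2 for knockout cells against mesoderm and 1 to 2 between knockout stages. Transcripts near the detection limit, Nodal, Lefty2, Smad2 and Smad3 above all, depend on where that limit is set. The cause of the shifts under other settings was not tested.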
